A study of Mus musculus with 20 samples.

Results

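The livers of 4 male NZO/HiBomDife mice were set against those of 4 male C57BL/6 (B6) mice, 8 of the 20 arrays in the series. NZO is described in the series title as obese and diabetes-susceptible, and B6 as lean and resistant, so the pair contrasts an obese with a lean strain and a susceptible with a resistant one. Both strains ate a high-fat diet (45% fat) until week 6. Whole livers were extracted with TRIzol, and Cy3-labelled cRNA was hybridised 1 sample per array to 60-base Agilent probes. Transcripts were included where their probe passed the scanner's test of being well above background in every NZO liver or in every B6 liver. This gave 20063 transcripts, of which 14387 carried the symbol of a RefSeq gene. Mice are called by the numbers of their labels: NZO 3, 7, 9 and 11, and B6 9, 10, 11 and 15. Whether they were littermates or housed together is not stated. Inbred strains differ at many loci as well as in weight, so obesity and strain background cannot be told apart in this pair.

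NZO (New Zealand Obese) is an inbred mouse strain in which many gene variants together cause overeating, fat gain and, in males, diabetes. B6 is the most widely used inbred laboratory strain. The liver clears glucose, lipids, hormones and foreign compounds. It does the last in steps: cytochrome P450 enzymes oxidise a compound, transferases attach glutathione, glucuronate or sulfate, and transport proteins of the ABC and solute carrier families move the product into bile or blood. Many of these enzymes come from tandem gene families, in which near-identical copies lie side by side on a chromosome. Several also differ between male and female mice, under the control of the pulses of growth hormone.

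Levels are log2 signals relative to the 75th percentile of the same array, so a level of 0 marks that percentile. Differences are NZO minus B6 on the log2 scale, given ± SE from limma with 4 mice per strain, and a transcript is called when its p, adjusted over all 20063 transcripts (Benjamini-Hochberg), is under 0.05. A number in parentheses after a gene is its log2 difference. The labelled tissue and sex were borne out by the values: the albumin gene Alb had log2 levels of 11.44, 11.38, 11.38 and 11.40 in NZO mice and 10.84, 11.36, 11.03 and 11.24 in B6 mice, Apoa1 and Ttr were likewise present in all 8 livers, and the Y-linked Ddx3y, Eif2s3y and Uty were above background in every mouse and called different in none. The share of probes well above background lay between 49.2% and 59.1% per array. One liver stood somewhat apart: the median transcript of NZO 7 lay 0.258 log2 units from the mean of the other 3 NZO mice, against 0.160 to 0.219 for those 3 and 0.139 to 0.177 for the B6 mice. NZO 7 also carried more skeletal muscle RNA than the rest, as described with the cell types below.

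The difference between the strains was broad but mostly small. Of the 20063 transcripts, 2963 (14.8%) were called: 1550 (7.73%) were higher in NZO and 1413 (7.04%) lower. Among RefSeq genes 2330 of 14387 (16.2%) were called, 1176 higher and 1154 lower. In 4594 transcripts (22.9%) the 4 NZO and the 4 B6 levels did not overlap, and 5693 had an unadjusted p under 0.05. The arrays were scanned on 2 days, and each day held both strains. Within the first day (NZO 3, 9 and 11, B6 10 and 15) 1291 transcripts were called, and within the second (NZO 7, B6 9 and 11) 563, with the lone NZO mouse taken to vary like the others. All 2963 called transcripts had the same direction within each day, but the calls came from these same mice, so this is no independent evidence. In all, 1920 of the 2963 calls were kept in each of the 8 fits that left out 1 mouse.

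Over all transcripts the median log2 difference was 0.05 and the median absolute difference 0.24, and 77.6% lay within 0.5 of 0. A long tail ran out on both sides. Among called transcripts the median absolute log2 difference was 0.87, 1237 reached 1 (590 higher, 647 lower in NZO), 415 reached 2 (195 higher, 220 lower), 179 reached 3 (92 higher, 87 lower) and 35 reached 5 (17 higher, 18 lower). The balance between the directions moved with the scaling of the arrays: 1394 were called higher and 1808 lower with the 75th percentile taken over probes above background on all 8 arrays, and 1435 higher and 1569 lower with quantile normalization. In 76 transcripts called higher no B6 array was well above background, and in 129 called lower no NZO array was. For such transcripts only a lower bound of the fold is given. The smallest called difference was 0.29.

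**Figure D1:**
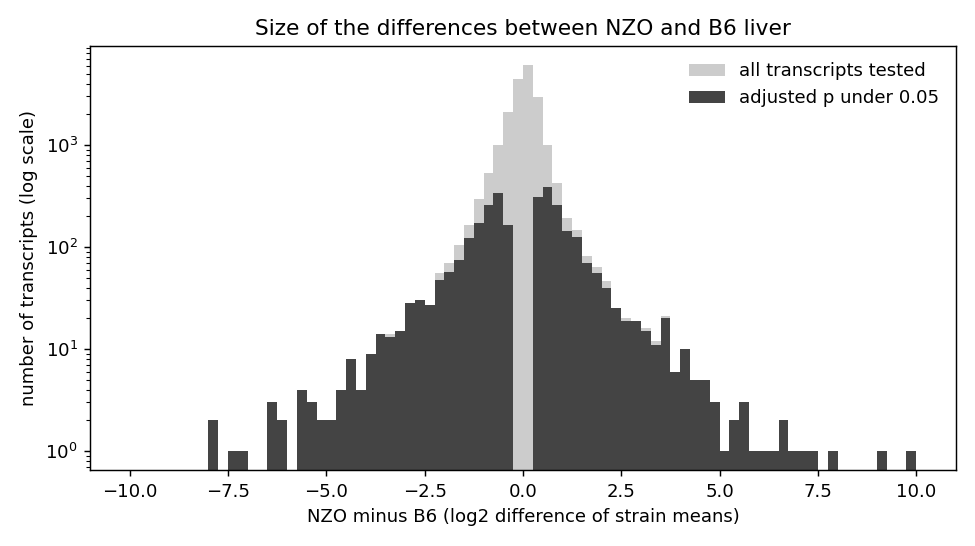
Number of transcripts (log scale) by log2 difference, NZO minus B6, for all 20063 tested transcripts (grey) and the 2963 called (dark). Most transcripts lie within 0.5 of 0, and the called ones spread to both sides in nearly equal numbers.

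The share called hardly depended on how bright a transcript was, but the size of its difference did. When transcripts were divided by brightness into 3 equal parts, the brightest had 13.8% called, with a median absolute log2 difference of 0.66 among the called. The middle part had 15.4% called with a median of 0.80 among the called, and the dimmest 15.1% with a median of 1.28. Over all transcripts, called or not, the median was 0.17 in the brightest part, 0.22 in the middle and 0.35 in the dimmest. The spread between mice of 1 strain ran the same way: the median SD in NZO and B6 mice was 0.15 and 0.12 in the brightest part, 0.22 and 0.18 in the middle and 0.40 and 0.31 in the dimmest. NZO mice varied more among themselves, with a median SD of 0.23 against 0.18 in B6 and the larger SD in NZO for 64.3% of transcripts. Without NZO 7 this became 0.18 against 0.18 and 52.3%, so most of the excess rested on that mouse.

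The genes set furthest apart relative to their spread split the strains without overlap. The 5 higher in NZO with the largest moderated t, among those above background in all 8 livers, were 1500011B03Rik, Prelid2, Tox4, Crym and Nt5e. Log2 levels of Tox4, which encodes a chromatin protein of a phosphatase complex, were 4.85, 4.90, 4.43 and 4.87 in NZO mice and -0.77, -0.81, -0.84 and -1.27 in B6 mice, a difference of 5.68 ± 0.16 (adjusted p = 4.95e-07). Crym, a cytosolic protein that binds thyroid hormone, had log2 levels of 2.14, 1.88, 1.91 and 2.30 in NZO mice and -2.24, -2.35, -2.72 and -2.70 in B6 mice, a difference of 4.56 ± 0.15 (adjusted p = 1.64e-06). Nt5e, the cell-surface enzyme that makes adenosine from AMP, had levels of 3.82, 3.44, 3.996 and 3.83 in NZO mice and -0.52, -0.41, -0.39 and -0.79 in B6 mice on the log2 scale (4.30 ± 0.15, adjusted p = 1.80e-06). All NZO mice thus lay several log2 units above all B6 mice at these genes. The uncharacterised 1500011B03Rik differed by 4.31 ± 0.11 and Prelid2, a member of the PRELI domain family, by 4.34 ± 0.12 on the log2 scale.

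The 5 lower in NZO by the same measure were Cyp39a1, Wfdc21, Gm5801, Gstm6 and Steap3. Cyp39a1, which hydroxylates oxysterols on the way to bile acids, had log2 levels of -2.76, -2.87, -2.41 and -2.81 in NZO mice and 2.87, 2.76, 2.86 and 3.15 in B6 mice. Its difference of -5.62 ± 0.14 (adjusted p = 3.32e-07) corresponds to a 49.2-fold lower level in NZO. Wfdc21, a small protein with a WAP domain, had log2 levels of 2.78, 3.21, 2.90 and 3.43 in NZO mice and 8.26, 8.12, 8.36 and 8.55 in B6 mice (-5.24 ± 0.17, adjusted p = 1.21e-06). Here the strains were separated by more than 4 log2 units in every pair of mice. Gm5801, a predicted gene, differed by -2.94 ± 0.098 and Steap3, an endosomal ferric reductase, by -2.70 ± 0.098 on the log2 scale.

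**Figure D2:**
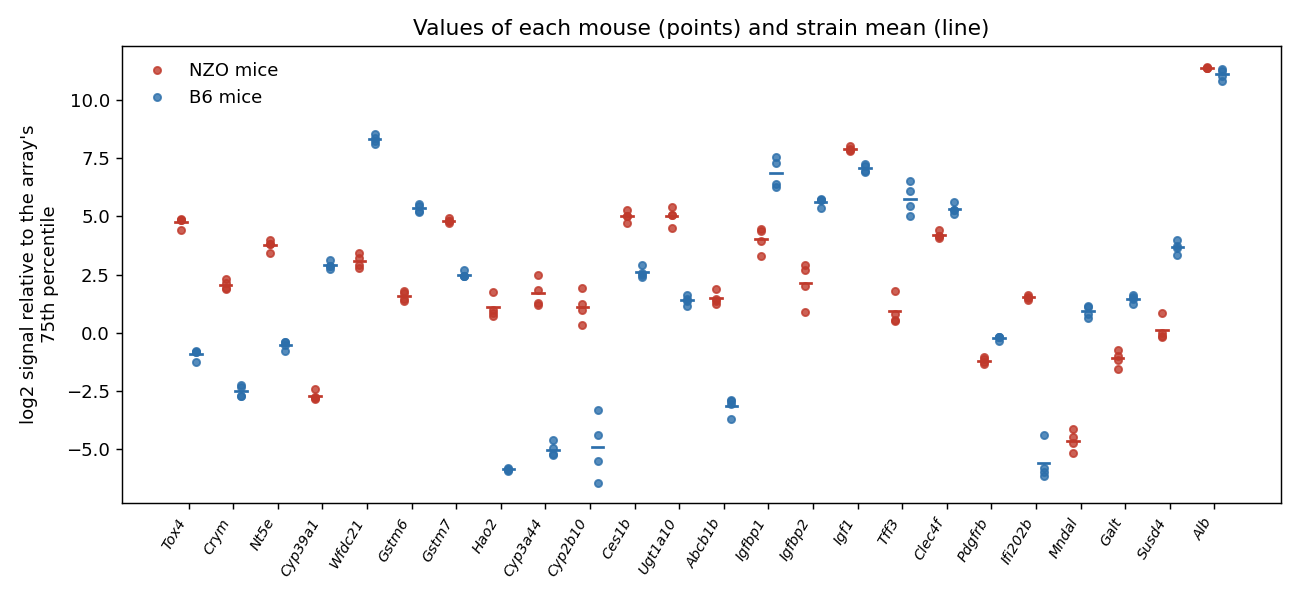
Log2 level of 24 genes named in the text in each mouse (points) with the strain mean (line), NZO at the left of each pair and B6 at the right. Tox4, Crym and Nt5e lie high in every NZO mouse, Cyp39a1, Wfdc21 and Gstm6 lie low, and Alb is level. Hao2, Cyp3a44 and Ifi202b were not well above background in B6, nor Mndal in NZO.

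Each value belongs to a probe, and for some genes the probes disagreed. Of the 2330 called RefSeq genes 1695 rested on 1 tested probe. In the other 635, a second probe was called in the same direction in 295 (46.5%) and in the opposite direction in 37. A second probe was called in the same direction in 21.7% of genes with a log2 difference under 0.5 (26 of 120), 43.6% between 0.5 and 1 (133 of 305), 58.3% between 1 and 2 (84 of 144) and 78.8% at 2 or more (52 of 66). Tox4 is 1 exception: its brightest probe differed by 5.68 and its other tested probe by -0.37 (adjusted p = 0.0745). The Steap3 probes differed by -2.70 and 0.41, both called. For Tox4 and Steap3 the data therefore show a difference at 1 probe and not a settled difference of the gene. Averaging all probes of a gene ended the calls of Ahcy, Alg13, Arhgdib, Csf1, Gstm4, Hmox1, Mcm3, Rps6kb1, Spcs2 and Zfp981, and another background correction (normexp) those of Aadat, Cd53, Cyp2s1, Hk2, Ifi209, Kcna2 and Zfp992, all named below. Gstm6, with -3.78, -3.91 and -3.92, and Igfbp2, with -3.49 and -3.59, were alike on all their probes.

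Few genes of the housekeeping machinery were called. Of 34 tested proteasome subunit genes 0 were called (median log2 difference 0.09), and of 22 circadian clock genes 0. The clock genes varied more within a strain than most, with a median SD of 0.27 in NZO and 0.43 in B6 against 0.23 and 0.18 over all transcripts, and their median absolute difference of 0.20 was near the 0.24 of all transcripts. Cytosolic ribosomal protein genes had 1 call in 77 (Rplp1, -0.33 ± 0.085, the call was kept without NZO 3 and lost without each of the other mice), with a median of 0.16. These counts compare with 14.8% of all transcripts called, and they come from limma at an adjusted p under 0.05. Of the 28 genes of the tricarboxylic acid cycle 1 was called, Pdk1, a kinase that switches off pyruvate dehydrogenase (-1.001 ± 0.22). In the respiratory chain, 3 of 37 complex I genes and 2 of 40 genes of complexes II to V were called, all higher in NZO. Ndufb8 of complex I differed by 0.61 ± 0.12 and Atp5pb of ATP synthase by 1.35 ± 0.10, though the other tested Atp5pb probe differed by 0.17 (adjusted p = 0.410). Cycs, cytochrome c, differed by 0.49 ± 0.10, a call that the mean of its probes did not keep. Among 76 mitochondrial ribosome genes 3 were higher and 1 lower, led by Mrps11 (0.88 ± 0.11).

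The share called in the protein-folding and protein-sorting lists was 5.56% for endoplasmic reticulum genes, 5.41% for N-glycosylation and 12.5% for the secretory pathway, against 14.8% of all transcripts. Of the endoplasmic reticulum folding and stress genes, 1 of 36 tested members was higher and 1 lower. The lower one, Derl3, a factor for degrading misfolded proteins, differed by -2.10 ± 0.32. The higher one, Fgf21, a fasting and stress hormone of the liver, differed by 2.46 ± 0.65 with adjusted p = 0.0392, and the call was kept without NZO 11 or B6 11 and lost without each of the other mice. In N-glycosylation, 2 of 37 tested members were higher and 0 lower, Alg8 (0.59) and Alg13 (0.72). Secretory pathway genes were called in 1 direction: 5 of 40 were higher, among them the coat subunit Copb1 (0.56) and the signal peptidase subunits Spcs2 (0.52) and Spcs3 (0.57), none of them reaching 1 log2 unit.

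**Figure D3:**
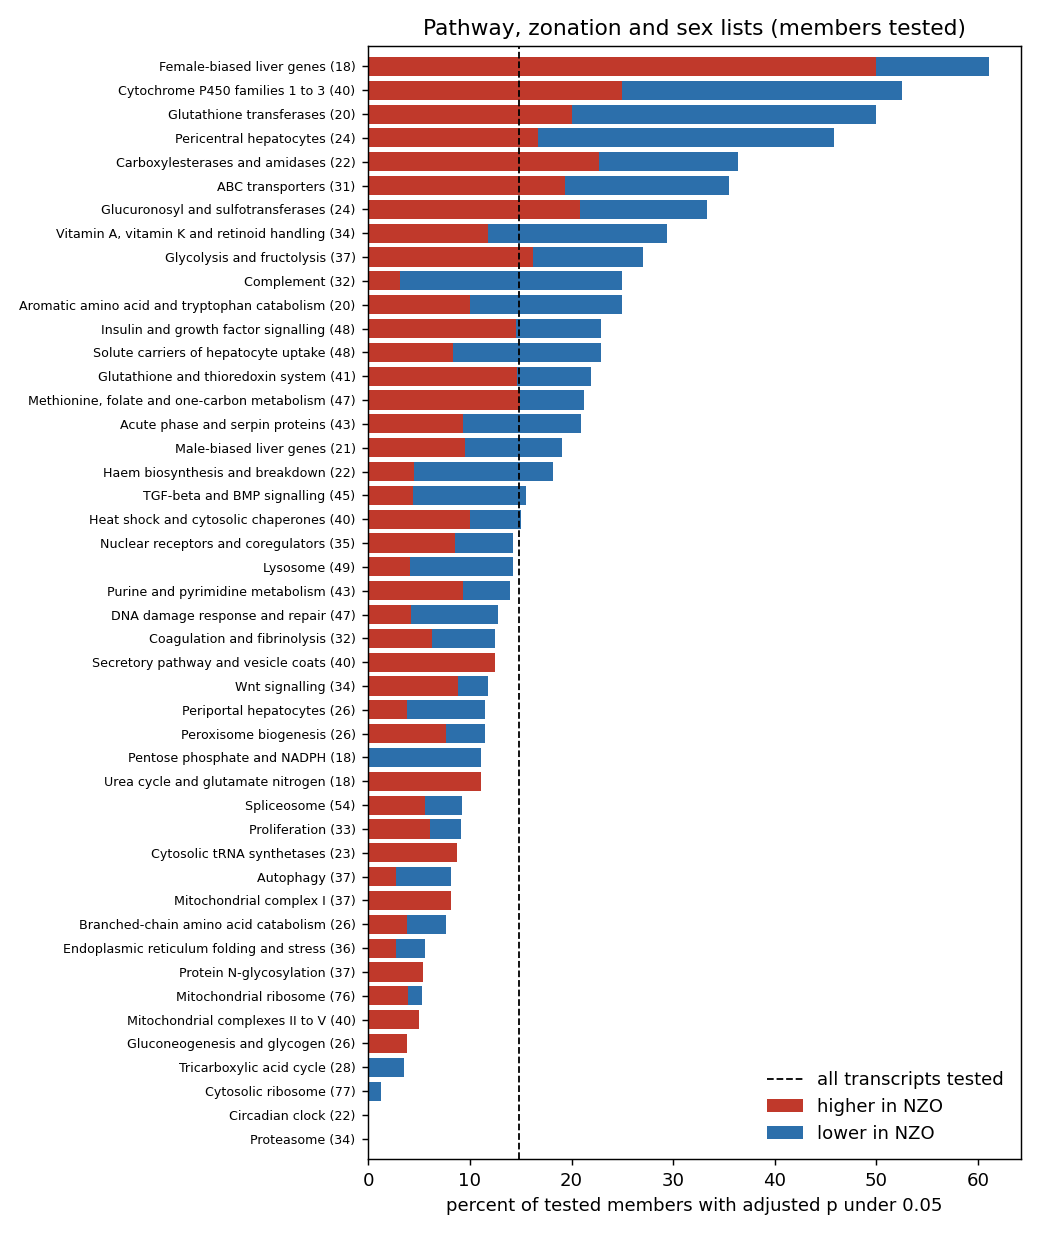
Percent of the tested members of each pathway, zonation and sex list that were called higher (red) or lower (blue) in NZO, with the share over all transcripts as a dashed line (14.8%). Proteasome and clock genes stand at 0, and female-biased genes, P450 genes and glutathione transferases stand furthest to the right. These shares count all tested members. Of them, 6 female-biased genes, 3 P450 genes and 1 glutathione transferase passed the background test through the NZO mice alone. Through the B6 mice alone 1 P450 gene passed.

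Enzymes of foreign-compound metabolism differed in both directions. Because whole livers were measured, fewer cells of a type and less RNA per cell cannot be told apart for any gene. Among cytochrome P450 genes of families 1 to 3, 10 of 40 tested members were higher and 11 lower, with a list median of -0.05 against 0.05 over all transcripts. Of the 40, 3 passed the background test through the NZO mice alone and 1 through the B6 mice alone. Of the 36 above background in all 8 livers, 7 were higher and 10 lower, with a median of -0.09. Cyp2b10, the P450 classically induced by phenobarbital, had log2 levels of 1.23, 0.32, 1.92 and 0.98 in NZO mice and -4.41, -5.50, -6.45 and -3.34 in B6 mice and was well above background in 1 of the 4 B6 mice. Its difference of 6.04 ± 0.64 (adjusted p = 0.000484) was among the larger in the data, and all NZO mice lay above all B6 mice. Nr1i3 encodes CAR, the receptor through which phenobarbital acts, and was lower in NZO (-0.99 ± 0.16, adjusted p = 0.0037). Cyp3a16, a P450 of the steroid-hydroxylating family, differed by 2.86 ± 0.22 and Cyp3a44, not well above background in B6, was at least 64.3-fold higher (adjusted p = 4.47e-06).

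The P450 genes lowest in NZO were Cyp2c genes, whose products turn arachidonic acid into signalling epoxides. Log2 levels of Cyp2c23 were 3.12, 2.29, 2.30 and 2.39 in NZO mice and 6.08, 6.27, 6.17 and 5.95 in B6 mice (-3.59 ± 0.19, adjusted p = 1.33e-05). Cyp2c37 had log2 levels of 2.28, 1.84, 2.29 and 1.98 in NZO mice and 5.09, 5.53, 5.29 and 5.15 in B6 mice (-3.17 ± 0.15, adjusted p = 6.03e-06). At both genes the 2 sets of mice lay far apart with no overlap. The other tested Cyp2c37 probe also differed, by -1.26 (adjusted p = 0.00347). Cyp2c54 differed by -1.22 ± 0.10.

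Glutathione transferases differed in opposite directions between neighbouring copies. Of the list, 4 of 20 tested members were higher and 6 lower. The lowest in NZO was Gsta2, of the alpha class on chromosome 9, with log2 levels of -2.26, -3.56, -3.62 and -2.80 in NZO mice and 1.12, 0.85, 1.20 and 1.34 in B6 mice (-4.19 ± 0.30, adjusted p = 6.21e-05). Gsta2 and the uncalled Ces1c and Ces1f below were chosen after their values were seen. The Gstm genes belong to the mu class of chromosome 3. Gstm7 had log2 levels of 4.92, 4.71, 4.80 and 4.81 in NZO mice and 2.44, 2.69, 2.44 and 2.44 in B6 mice, a difference of 2.31 ± 0.099 (adjusted p = 4.11e-06). Gstm6 had log2 levels of 1.46, 1.78, 1.72 and 1.37 in NZO mice and 5.53, 5.47, 5.26 and 5.17 in B6 mice, a difference of -3.78 ± 0.13 (adjusted p = 2.10e-06). Gstm7 was thus high and Gstm6 low in each of the 4 NZO mice. Gstm2 was lower (-3.05 ± 0.15, adjusted p = 7.38e-06), and so was Gstm3 (-1.84 ± 0.11, adjusted p = 1.88e-05). Outside the cluster, Gsto2 of the omega class was higher by 1.57 ± 0.29.

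Because these copies are so alike, the probe sequences matter for reading the values. Of the mu and carboxylesterase genes called, 5 had their brightest probe across an exon junction, its place on the genome being longer than the probe, and these are shown on mouse build mm9 as given by the array files, all on the minus strand. They cover chr3:107732073-107733247 (Gstm7), chr3:107769290-107770549 (Gstm3), chr3:107846495-107846847 (Gstm4), chr8:95581314-95584247 (Ces1b) and chr8:95693648-95694933 (Ces1d). Capitals mark the bases at which the paired probes of Gstm7 and Gstm3, and of Ces1b and Ces1d, differ where they overlap.
Gstm7: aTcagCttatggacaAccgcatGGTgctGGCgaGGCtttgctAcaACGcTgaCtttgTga
Gstm3: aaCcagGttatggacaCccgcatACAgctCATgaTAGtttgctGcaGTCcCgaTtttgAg
Gstm4: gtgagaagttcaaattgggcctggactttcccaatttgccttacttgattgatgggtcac
Ces1b: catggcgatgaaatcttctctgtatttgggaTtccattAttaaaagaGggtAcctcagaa
Ces1d: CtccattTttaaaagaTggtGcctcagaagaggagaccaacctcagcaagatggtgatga

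Over the 59 bases that they share in position, the Gstm7 and Gstm3 probes were identical at 40 and differed at 19, with a longest common run of 9 bases. Gstm7 was higher and Gstm3 lower in NZO at these probes. The Ces1b and Ces1d probes overlapped by 29 bases and differed at 4. Probes of 1 gene were not always alike: the other tested Gstm7 probes differed by 1.15 (adjusted p = 0.00270) and 0.15 (adjusted p = 0.398), the other Gstm3 probe by -5.81 (adjusted p = 2.43e-06), and the Gstm4 probes by -0.92 and 1.33, both called. Gstm2, with -3.05, -2.87 and -3.36, was lower on all 3 probes.

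Glucuronosyl and sulfotransferases, which make compounds water-soluble, had 5 of 24 tested members higher and 3 lower. Ugt1a10 had log2 levels of 5.40, 4.50, 5.07 and 5.08 in NZO mice and 1.15, 1.61, 1.35 and 1.46 in B6 mice (3.62 ± 0.19, adjusted p = 1.30e-05), and its other tested probe differed by 3.00. The Ugt1a isoforms share most of their exons, so a probe may read several of them. Sult5a1 (1.45 ± 0.20) and Sult1b1 (0.81 ± 0.14) were higher. The phenol sulfotransferase Sult1a1 (-1.23 ± 0.19) and Papss2, which makes the sulfate donor (-0.68 ± 0.13), were lower. Among carboxylesterases and amidases, which cleave esters of drugs and lipids, 5 of 22 tested members were higher and 3 lower. Ces1b (2.41 ± 0.16), Ces1e (1.26 ± 0.18) and Ces1d (0.99 ± 0.11) were higher, and Ces2a (-1.19 ± 0.10) and Ces2c (-0.96 ± 0.13) lower. Ces1c (-0.25, adjusted p = 0.195) and Ces1f (0.21, adjusted p = 0.34) were not called. Ces1b had log2 levels of 5.04, 4.70, 5.29 and 5.00 in NZO mice and 2.41, 2.58, 2.47 and 2.91 in B6 mice.

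Transport proteins also changed in both directions. Of the ABC transporters, 6 of 31 tested members were higher and 5 lower. Abcb1b, a multidrug efflux pump, had log2 levels of 1.45, 1.23, 1.86 and 1.38 in NZO mice and -3.08, -2.90, -2.94 and -3.70 in B6 mice (4.63 ± 0.21, adjusted p = 4.71e-06), so that it was 24.8-fold higher in NZO. Abca3, a lipid transporter, was higher by 2.36 ± 0.091 (adjusted p = 2.82e-06). The bile salt export pump Abcb11 was lower (-1.12 ± 0.11, adjusted p = 0.000377), as was Abcc3, which returns conjugates to blood (-1.23 ± 0.12, adjusted p = 0.000292). Among uptake carriers, 4 of 48 tested members were higher and 7 lower. The vesicular glutamate transporter Slc17a8 (3.24 ± 0.37) and the organic anion carrier Slc22a7 (0.88 ± 0.11) were higher, and the zinc carrier Slc39a5 was at least 6.18-fold higher. The amino acid carriers Slc1a2 (-1.46 ± 0.11), Slc7a2 (-2.01 ± 0.24) and Slc7a8 (-1.35 ± 0.13) were lower.

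Among genes known to be expressed more in female than in male mouse liver, several were higher in NZO. All 8 mice were male, and of 28 such genes listed 18 were tested, 9 of them called higher and 2 lower. Of the 18, 6 passed the background test through the NZO mice alone, so their count is no support for a shift of the list. Of the 12 above background in all 8 livers, 3 were called higher and 2 lower, with a median log2 difference of 0.41 against 0.05 over all transcripts. Hao2, a peroxisomal oxidase of hydroxy acids, had log2 levels of 0.98, 0.73, 1.76 and 0.87 in NZO mice and -5.92, -5.93, -5.81 and -5.86 in B6 mice. It was not well above background in any B6 mouse and stood at least 42.3-fold higher in the NZO livers (adjusted p = 9.42e-07). Cyp3a44, at log2 means of 1.69 in NZO and -5.02 in B6, behaved likewise. The steroid hydroxylase Cyp2a4 (-1.27 ± 0.25) and Prom1 (-0.98 ± 0.13), a membrane protein that also marks bile duct cells, went the other way. Set against the mean of the 8 mice, the list's mean log2 level lay at 0.74 to 1.25 in the NZO livers and at -1.18 to -0.74 in the B6 livers. This mean covers all 18 tested members. The 6 that passed through the NZO mice alone widen the gap, so its size is no support for a shift of the list either.

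Genes known to be higher in males were called in both directions. Of them, 2 of 21 tested members were higher and 2 lower. Cyp4a12a (1.31 ± 0.16) and Cyp4a12b (1.34 ± 0.18), the male fatty acid hydroxylases, were higher in NZO. Susd4, a regulator of complement, had log2 levels of -0.14, 0.85, -0.01 and -0.16 in NZO mice and 3.72, 3.65, 4.004 and 3.36 in B6 mice (-3.55 ± 0.25, adjusted p = 5.37e-05). Its NZO levels were all below its B6 levels. C6, a terminal complement protein, was lower (-0.72 ± 0.20) with adjusted p = 0.0436, and the call was kept without B6 15 and lost without each of the other mice. The receptor for prolactin, Prlr, which is higher in female liver, was higher in NZO by 1.29 ± 0.20 (adjusted p = 0.00377).

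In insulin and growth factor signalling, 7 of 48 tested members were higher and 4 lower, and the 3 with the smallest adjusted p were Igfbp2, Igfbp1 and Igf1. Igf1 is a circulating growth factor, and the Igfbp proteins bind it. Igfbp2 had log2 levels of 2.03, 2.68, 2.93 and 0.91 in NZO mice and 5.73, 5.71, 5.71 and 5.36 in B6 mice (-3.49 ± 0.40, adjusted p = 0.000726). Igfbp1, which insulin represses, had log2 levels of 3.31, 3.96, 4.40 and 4.46 in NZO mice and 6.38, 7.56, 6.26 and 7.30 in B6 mice (-2.84 ± 0.37, adjusted p = 0.00133). Every NZO mouse was below every B6 mouse at both genes, and the NZO levels of Igfbp2 spread over about 2 log2 units. Igf1 had log2 levels of 8.05, 7.92, 7.81 and 7.88 in NZO mice and 6.95, 7.18, 7.25 and 6.89 in B6 mice (0.84 ± 0.11, adjusted p = 0.00162), with 3 further probes called higher, by 0.84, 1.20 and 1.35, and a dim one at 0.26 not called. The regulatory PI3-kinase subunit Pik3r1 was higher by 0.64 ± 0.12, and the kinase Rps6kb1 lower (-0.83 ± 0.11).

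Sugar metabolism differed at single enzymes. The share called was 27.0% for glycolysis and fructolysis, 3.85% for gluconeogenesis and glycogen and 11.1% for pentose phosphate genes, against 14.8% of all transcripts. Of glycolysis and fructolysis genes, 6 of 37 tested members were higher and 4 lower. The muscle-type pyruvate kinase Pkm was lower (-1.44 ± 0.14, adjusted p = 0.000325), and the liver-type Pklr higher by 0.98 ± 0.22 (adjusted p = 0.0197), a call lost without NZO 3, B6 11 or B6 15. Hk2, the hexokinase of muscle and fat, was at least 2.03-fold lower and not well above background in any NZO mouse. Galt, which converts galactose, had log2 levels of -1.54, -0.73, -1.16 and -0.99 in NZO mice and 1.62, 1.45, 1.56 and 1.23 in B6 mice (-2.57 ± 0.18), but its other tested probe was called in the opposite direction at 1.21 (adjusted p = 0.000654). Tkfc, which phosphorylates products of fructose, was higher by 1.05 ± 0.25, and the call was kept without NZO 7, NZO 9 or NZO 11 and lost without each of the other mice. Of 26 gluconeogenesis and glycogen genes 1 was called, Pcx, the pyruvate carboxylase, higher by 0.64 ± 0.14 and lost without B6 9. In the pentose phosphate list 2 of 18 were lower, Prps2 (-1.06 ± 0.18) and Prps1 (-0.44 ± 0.12), which start nucleotide synthesis, and for Prps1 the call was kept without NZO 3 or NZO 7 and lost without each of the other mice.

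In folate and methionine metabolism, 7 of 47 tested members were higher and 3 lower. The folate receptor Folr1 had log2 levels of -1.07, -0.88, -0.55 and -1.32 in NZO mice and -2.73, -3.15, -3.17 and -3.29 in B6 mice (2.13 ± 0.19, adjusted p = 0.000178). The folate enzymes Mthfd2 (1.34 ± 0.19) and Shmt1 (0.63 ± 0.11) were higher. Ahcy, which clears S-adenosylhomocysteine, was lower (-1.49 ± 0.14) at its brightest probe but differed by 0.11 and 0.09 at the other 2, neither called. Amdhd1 of histidine breakdown was lower (-0.90 ± 0.11). Of aromatic amino acid genes, 2 of 20 tested members were higher and 3 lower: the decarboxylase Ddc was higher by 1.44 ± 0.22, Qdpr, which recycles the cofactor of phenylalanine hydroxylase, was lower (-1.18 ± 0.11), and so was Kmo of the kynurenine route (-0.50 ± 0.10). Aadat of the same route was at least 2.64-fold lower. Of the branched-chain list, 1 of 26 tested members was higher and 1 lower: Bckdhb, a subunit of the enzyme that commits these acids to breakdown, was higher (0.93 ± 0.13), and Pccb, a propionyl-CoA carboxylase subunit, lower (-0.89 ± 0.14). Of the urea cycle and glutamate list, 2 of 18 tested members were higher and 0 lower: the ammonium transporter Rhbg (1.30 ± 0.17) and the aminotransferase Got1 (1.24 ± 0.29). For Got1 the call was lost without NZO 3, B6 10, B6 11 or B6 15. The folate and methionine list had 21.3% called, the aromatic 25%, the branched-chain 7.69% and the urea cycle list 11.1%. Over all transcripts the share was 14.8%.

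Nucleotide genes held a few large differences, though their share called, 14.0%, was near the 14.8% of all transcripts. Of purine and pyrimidine genes, 4 of 43 tested members were higher and 2 lower. Besides Nt5e, the AMP deaminase Ampd2 was higher by 0.82 ± 0.11 and the nucleotidase Nt5c2 by 0.74 ± 0.15. Pfas, an enzyme of new purine synthesis, was at least 5.5-fold lower and not well above background in any NZO mouse (adjusted p = 6.53e-05). The uridine kinase Uck2 was lower (-1.08 ± 0.14). In haem metabolism, 1 of 22 tested members was higher and 3 lower: the early enzyme Alad was higher by 0.98 ± 0.094, Abcb10, a mitochondrial transporter, lower (-0.95 ± 0.12), and Hmox1, which breaks haem down, lower (-0.91 ± 0.15).

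Of vitamin A and retinoid genes, 4 of 34 tested members were higher and 6 lower. The retinol dehydrogenase Rdh16 (1.65 ± 0.25) and the aldehyde dehydrogenase Aldh1a7 (1.28 ± 0.15) were higher, the retinoic acid receptor Rarg (-0.66 ± 0.11) lower, and Dhrs9, another retinol dehydrogenase, at least 2.89-fold lower. In the glutathione and thioredoxin system, 6 of 41 tested members were higher and 3 lower. Glrx, which removes glutathione from proteins, had log2 levels of 4.61, 3.90, 4.18 and 4.55 in NZO mice and 2.44, 2.48, 2.28 and 2.50 in B6 mice (1.89 ± 0.17, adjusted p = 0.000177). Glo1, which detoxifies methylglyoxal, was higher by 0.50 ± 0.092. The mitochondrial peroxidase Prdx3 (-0.56 ± 0.11) and the glutathione hydrolase family member Ggt6 (-1.57 ± 0.32) were lower.

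Peroxisome biogenesis genes had 2 of 26 tested members higher and 1 lower. The lower one, Slc25a17, a peroxisomal membrane carrier of cofactors, had log2 levels of 1.66, 1.41, 1.68 and 1.76 in NZO mice and 4.86, 4.84, 5.03 and 4.36 in B6 mice (-3.14 ± 0.16, adjusted p = 8.91e-06), and the strains did not overlap. Pxmp4 was higher by 0.89 ± 0.15, a call that the mean of its probes did not keep. Of lysosomal genes, 2 of 49 tested members were higher and 5 lower: the sugar-cleaving enzymes Glb1 (-1.13 ± 0.088) and Manba (-0.77 ± 0.14) and the protease Lgmn (-0.54 ± 0.099) were lower. Of autophagy genes, 1 of 37 tested members was higher and 2 lower, with Ulk2, a kinase that starts the process, lower (-0.70 ± 0.11).

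Among plasma proteins made by the liver, complement genes had 1 of 32 tested members higher and 7 lower. Mbl2, the mannose-binding lectin, was higher by 0.79 ± 0.093 (adjusted p = 0.000827). The lectin Fcna (-0.78 ± 0.11) and properdin, Cfp (-0.73 ± 0.13), were lower. Both are made largely by myeloid cells. Of 25 tested Kupffer cell and macrophage markers 11 were lower, as given below, and the part of those cells in the complement values was not tested. Hc, complement component C5, was lower (-0.49 ± 0.09). In coagulation, 2 of 32 tested members were higher and 2 lower: the fibrinogen chain gene Fga was higher by 0.88 ± 0.15, and the endothelial anticoagulants Thbd (-1.24 ± 0.11) and Tfpi (-0.83 ± 0.17) were lower. Of acute phase and serpin genes, 4 of 43 tested members were higher and 5 lower. The share called was 25% for complement, 12.5% for coagulation and 20.9% for acute phase and serpin genes, against 14.8% of all transcripts. Serpina6, which carries glucocorticoids in blood, was higher by 0.71 ± 0.10, the pentraxin Apcs by 1.73 ± 0.28 and Fgl1 by 0.99 ± 0.18. The lipocalin Lcn2 (-2.69 ± 0.61) and the orosomucoid Orm3 (-2.06 ± 0.48) were lower, and both calls were lost without NZO 3, NZO 9 or NZO 11.

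Of nuclear receptors and coregulators, 3 of 35 tested members were higher and 2 lower. That is 14.3% called, with 15.6% of TGF-beta and BMP genes and 11.8% of Wnt genes, against 14.8% of all transcripts. The coactivator Med1 was lower (-1.48 ± 0.11) at its brightest probe, and its 3 other tested probes differed by 0.34, -0.29 and 0.09, none called. The oestrogen receptor Esr1 was higher by 0.59 ± 0.13, but no longer called without B6 9, B6 10 or B6 11 or with the mean of its probes, and its other tested probe differed by 0.03 (adjusted p = 0.954). TGF-beta and BMP genes had 2 of 45 tested members higher and 5 lower, the lower ones including the receptor Tgfbr2 (-0.88 ± 0.16), the matrix protein Tgfbi (-0.77 ± 0.10) and the latent binding protein Ltbp4 (-0.97 ± 0.13). Of Wnt genes, 3 of 34 tested members were higher and 1 lower, with Apc, the tumour suppressor that restrains the pathway, higher by 1.51 ± 0.18 and the secreted Dkk3 by 0.76 ± 0.10.

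Proliferation genes had 2 of 33 tested members higher and 1 lower, with the replication helicase subunits Mcm3 (0.91 ± 0.10) and Mcm6 (0.54 ± 0.098) higher and the spindle protein Prc1 (-1.15 ± 0.16) lower. The other tested Mcm3 probe was called in the opposite direction, at -0.64 (adjusted p = 0.00561). Of DNA repair genes, 2 of 47 tested members were higher and 4 lower. Ogg1, which removes oxidised guanine, had log2 levels of -2.59, -2.94, -2.46 and -2.86 in NZO mice and -0.91, -0.92, -0.94 and -1.13 in B6 mice (-1.74 ± 0.13, adjusted p = 7.68e-05). Of chaperones, 4 of 40 tested members were higher and 2 lower: the mitochondrial co-chaperonin Hspe1 was higher by 1.15 ± 0.093, Fkbp5, a glucocorticoid-induced co-chaperone, by 0.91 ± 0.15, and the small heat shock protein Hspb1 lower (-1.05 ± 0.16). Spliceosome genes, with 3 of 54 tested members higher and 2 lower, stayed below the share over all transcripts. Called were 9.09% of proliferation, 12.8% of DNA repair and 15% of chaperone genes, against 14.8% of all transcripts. Of cytosolic tRNA synthetases, 2 of 23 tested members were higher and 0 lower, with the histidine enzyme Hars higher by 1.62 ± 0.14 (adjusted p = 0.000131).

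By kind of list, the pathway lists together had 233 of 1510 tested genes called (15.4%), close to the 14.8% of all transcripts. The zonation lists had 14 of 50 (28.0%), the sex-biased lists 15 of 39 (38.5%) and the cell type markers 49 of 204 (24.0%). The sex-biased share is raised by the 6 female-biased genes that passed the background test through the NZO mice alone. Of the 12 female-biased genes above background in all 8 livers, 3 were called higher and 2 lower. The share of the cell type markers also counts members that passed through 1 strain alone. In the pericentral list, of genes expressed around the central vein, 4 of 24 tested members were higher and 7 lower. Of its members, Rhbg and Sult5a1 were higher, and Slc1a2, Cyp2c37 and Gstm3 lower, with the values given above. In the periportal list, 1 of 26 tested members was higher and 2 lower, with Cdh1, the adhesion protein E-cadherin, lower (-0.996 ± 0.14) and Igf1 higher.

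Markers of several non-parenchymal cell types were called lower in NZO. Of Kupffer cell and macrophage markers, 1 of 25 tested members was higher and 11 lower, with a median log2 difference of -0.39. Through the B6 mice alone 2 of them passed the background test, and through the NZO mice alone 1. Of the 22 above background in all 8 livers, 1 was higher and 10 lower, with a median of -0.40. The Kupffer cell lectin Clec4f had log2 levels of 4.41, 4.18, 4.09 and 4.16 in NZO mice and 5.13, 5.27, 5.27 and 5.63 in B6 mice (-1.12 ± 0.13, adjusted p = 0.000864). Trem2, a lipid-sensing receptor of macrophages, was lower (-1.52 ± 0.17, adjusted p = 0.000644), as was the scavenger protein Cd5l (-0.69 ± 0.11), whereas the chemokine receptor Cx3cr1 was higher by 1.47 ± 0.24 (adjusted p = 0.00447). The summed linear level of the 25 tested markers was 234 to 269 in NZO and 307 to 439 in B6, in multiples of the 75th percentile. None of the 27 listed markers was below background in all 8 livers. The list median was -0.52 within the first scan day and -0.19 within the second, where 3 and 1 of the markers were called.

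Bile duct and stellate cell markers were called mostly lower as well. Of cholangiocyte markers, 1 of 16 tested members was higher and 6 lower, with a median log2 difference of -0.54 (-0.22 with normexp). Through the B6 mice alone 2 of them passed the background test, and through the NZO mice alone 1. Of the 13 above background in all 8 livers, 0 were higher and 5 lower, with a median of -0.44. The summed level of the 16 tested markers was 223 to 272 in NZO and 304 to 355 in B6. This gap rests on 1 gene, Tff3, without which the sums of the strains would overlap. Tff3, a secreted mucosal peptide, had log2 levels of 0.52, 1.80, 0.55 and 0.78 in NZO mice and 5.43, 5.03, 6.11 and 6.51 in B6 mice (-4.86 ± 0.39, adjusted p = 0.000109). Of stellate cell and fibroblast markers, 0 of 29 tested members were higher and 8 lower, with a median of -0.38. Of the 28 above background in all 8 livers, 0 were higher and 8 lower, with a median of -0.37. The growth factor receptor Pdgfrb had log2 levels of -1.15, -1.06, -1.26 and -1.36 in NZO mice and -0.16, -0.21, -0.20 and -0.35 in B6 mice (-0.98 ± 0.099, adjusted p = 0.000359), and the collagen Col6a1 (-0.86 ± 0.15) and the matrix protein Lum (-0.69 ± 0.14) were lower. The summed stellate level, 310 to 410 in NZO and 385 to 435 in B6, overlapped between the strains. Within the first and the second scan day the list medians were -0.50 and -0.42 for cholangiocytes and -0.42 and -0.21 for stellate cells. Of sinusoidal endothelial markers, 1 of 25 tested members was higher and 2 lower, with the nuclease Dnase1l3 lower (-1.30 ± 0.18). Of 18 hepatocyte markers 1 was called, Fga, and their summed level was 17502 to 18949 in NZO and 14958 to 16792 in B6.

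Blood, fat and muscle markers were read for tissue carried along with the liver. Of erythroid and platelet markers, 3 of 14 tested members were higher and 1 lower, with Alas2, the erythroid enzyme that starts haem synthesis, higher by 0.91 ± 0.13 and a summed level of 1320 to 2018 in NZO and 754 to 1049 in B6. The fat cell markers Adipoq, Lep, Plin1, Cidea and Nnat were well above background on none of the 8 arrays, nor were 8 of 18 pancreas markers. The 8 tested fat cell markers had a summed level of 661 to 753 in NZO and 479 to 558 in B6. Of these 8, Car3, an anhydrase that hepatocytes also make, was called higher by 0.49 ± 0.095, a call lost under quantile normalization and normexp. At its brightest probe the adrenergic receptor Adrb3 was at least 49.7-fold lower and not well above background in any NZO mouse. Its other tested probe differed by less, -2.31 on the log2 scale (adjusted p = 0.000864). Skeletal muscle markers set NZO 7 apart: their summed level was 80.1 in NZO 7, at most 31.6 in the other NZO mice, and 7.04 to 24.9 in B6, with the highest B6 value in B6 10. The sums include Myom2, given below, which was high in every NZO mouse. Those of the NZO mice other than NZO 7 rest largely on this gene. Of the 14 tested, Myom2 and Neb were called, and for Neb the call was lost without NZO 9, B6 9, B6 11 or B6 15. Myom2, a protein of the muscle sarcomere, had log2 levels of 4.44, 3.83, 3.76 and 4.34 in NZO mice and -6.34, -2.72, -6.52 and -4.68 in B6 mice (9.16 ± 0.77, adjusted p = 0.000139). It was well above background in 1 of the 4 B6 mice, so the size of its difference rests on signals near background. The Myom2 level of NZO 7 lay among those of the other NZO mice, and the part of muscle in the value was not tested. Of T and NK cell markers, 2 of 17 tested members were higher and 2 lower, and of B cell markers, 1 of 10 tested members was higher and 1 lower, with Cd22 higher by 1.59 ± 0.1. Among neutrophil markers, 2 of 15 tested members were higher and 2 lower. The granulocyte transcription factor Cebpe was not well above background in any NZO mouse, and its level there was at least 114-fold lower (adjusted p = 1.64e-06).

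**Figure D4:**
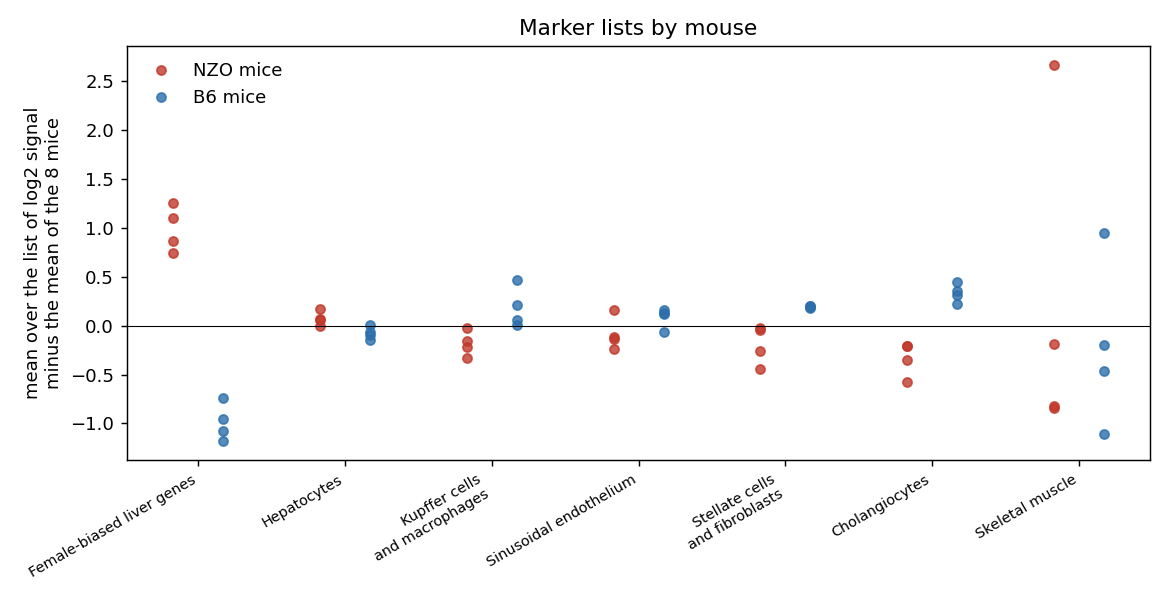
Mean over the members of each list of the log2 level minus the mean of the 8 mice, 1 point per mouse, NZO at the left and B6 at the right of each pair. Female-biased genes separate the strains widely, but 6 of their 18 members passed the background test through the NZO mice alone, which widens that gap. Kupffer, cholangiocyte and stellate markers lie lower in NZO, hepatocyte markers lie near 0, and NZO 7 stands alone for skeletal muscle. Of the tested members, 2 Kupffer cell, 2 cholangiocyte and 1 stellate marker passed through the B6 mice alone. Through the NZO mice alone 1 Kupffer cell and 1 cholangiocyte marker passed.

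Called genes lay on every autosome and the X chromosome. The share per chromosome ran between 12.6% on the X chromosome and 20.1% on chromosome 17 (148 of 735), with 19.5% on chromosome 1 (154 of 791), and 0 of 4 tested genes on the Y chromosome. On a finer scale the called genes were bunched. The 14326 genes placed on mm9 fell into 632 windows of 2 Mb with at least 8 tested genes. The median window had 14.3% called, 83 windows had 0, and 12 had at least 50%. Windows and runs count all tested genes, also those that passed the background test through 1 strain alone. With only probes above background in all 8 livers, 4 windows had at least 50% called. Along the chromosomes there were 32 runs of at least 4 neighbouring tested genes that were all called, holding 153 genes. In 3 of them all genes went in 1 direction. Calls of RefSeq genes were split almost evenly (1176 higher, 1154 lower), so most runs would mix directions even if neighbours were unrelated.

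The highest window, chromosome 1 at 174 to 176 Mb, had 17 of 26 tested genes called, 6 higher and 11 lower. It holds the Ifi200 family of DNA-sensing proteins induced by interferon. Of the called genes, Slamf8, Ifi213 and Mndal passed the background test through the B6 mice alone, and Ifi202b through the NZO mice alone. Ifi202b, not well above background in B6, had an NZO level at least 56.7-fold higher (adjusted p = 8.26e-06), and Mndal, not well above background in NZO, a level there at least 29.9-fold lower (adjusted p = 3.44e-06). Log2 levels of Ifi203 were -3.28, -1.76, -1.49 and -2.26 in NZO mice and 1.97, 2.37, 2.31 and 2.27 in B6 mice (-4.43 ± 0.35), though 2 of its other probes were not called. Ifi211 (-3.30 ± 0.20) and Ifi204 (-1.42 ± 0.10) were lower too. Ifi208 was higher by 1.501 ± 0.13 at its brightest probe and lower at the 3 others (-3.17, -2.80 and -3.18), so that the mean of its probes reversed the direction (-1.91). Ifi213, Ifi209, Ifi208, Ifi207 and Ifi204 formed a run of 5. The window also held genes of other families: Tagln2, an actin-binding protein, was lower (-2.28 ± 0.095), as was the phosphatase Dusp23 (-2.51 ± 0.12), and the chemokine-binding Ackr1 higher by 1.19 ± 0.19. The other tested Tagln2 probe differed by less, -0.76 (adjusted p = 0.00396).

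The second window, chromosome 3 at 106 to 108 Mb, had 14 of 25 called, 3 higher and 11 lower. Besides the Gstm genes it held Kcna2, a potassium channel subunit that was at least 1.45-fold lower, Cyb561d1 (-1.38 ± 0.14), the leukocyte tetraspanin Cd53 (-1.20 ± 0.16) and the macrophage growth factor Csf1 (-0.61 ± 0.11). The other tested Cyb561d1 probe differed by 0.09 and was not called (adjusted p = 0.858). A run of 8 genes reached from Csf1 through the Gstm genes to Ampd2 at 107.5 to 107.9 Mb, 2 higher and 6 lower. In the window of chromosome 5 at 8 to 10 Mb, 5 of 9 were called: Abcb1b stood out, Tmem243 was lower (-0.88 ± 0.14), and the calls of Abcb1a, Dbf4 and Slc25a40 were each lost without at least 5 of the 8 mice. Chromosome 8 at 94 to 96 Mb also had 5 of 9, namely Ces1b, Ces1d, Ces1e and Ces1g, higher, and Mmp2, lower. The call of Ces1g (0.66 ± 0.16) was lost in 5 of the 8 fits that left out 1 mouse and under both other scalings, and that of Mmp2 in each of the 8 fits. Of the other 4 tested genes there, Ces1c and Ces1f belong to the same family.

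Chromosome 1 at 184 to 186 Mb had 6 of 11 called, with Susd4 lowest and the flagellin receptor Tlr5 lower (-2.01 ± 0.34), Degs1 of ceramide synthesis higher by 0.57 ± 0.12 and the ubiquitin ligase subunit Fbxo28 by 0.53 ± 0.10. Chromosome 6 at 136 to 138 Mb had 8 of 16, among them Dera, an aldolase of deoxyribose phosphate, with log2 levels of 3.12, 2.65, 2.81 and 3.08 in NZO mice and 0.34, 0.37, 0.34 and 0.37 in B6 mice (2.56 ± 0.12, adjusted p = 6.79e-06). Its neighbours Gucy2c, the receptor of guanylin (2.49 ± 0.25), and Erp27, a protein of the endoplasmic reticulum (2.09 ± 0.12), were higher too, Pde6h was at least 4.44-fold higher, and Art4 (-1.46 ± 0.13) and Arhgdib (-0.74 ± 0.13) were lower. When neighbours whose names begin alike were counted as 1 gene, 10 windows had at least 50% called and there were 25 runs. Such a group counted as called when any of its members was, so these counts lean towards called. The chromosome 1 window at 184 to 186 Mb was then the highest, with 6 of 10.

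The longest run was the Cyp2c cluster of chromosome 19 at 39.1 to 40.2 Mb, where 10 neighbouring tested genes were all called. In map order they were Cyp2c55 (-3.17 ± 0.38), Cyp2c29 (0.52 ± 0.13), Cyp2c38 (-1.05 ± 0.13), Cyp2c39 (1.36 ± 0.18), Cyp2c67 (1.92 ± 0.19), Cyp2c68 (1.69 ± 0.19), Cyp2c37, Cyp2c54, Cyp2c50 (-1.07 ± 0.13) and Cyp2c70 (0.70 ± 0.19). Cyp2c39, Cyp2c67 and Cyp2c68 stood next to each other and were all higher, as were Cyp2c37, Cyp2c54 and Cyp2c50 all lower. For Cyp2c29 the call was kept without NZO 7, NZO 11 or B6 10 and lost without each of the other mice, and for Cyp2c70 the call was kept without B6 10 or B6 11 and lost without each of the other mice. The other tested Cyp2c38 probe was called higher, at 3.25 (adjusted p = 0.000124).

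A run of 8 genes on chromosome 4 at 41.7 to 42.3 Mb held, among others, Galt, the dynactin subunit Dctn3 (0.64 ± 0.11), Il11ra1 (0.64 ± 0.10), Rpp25l (0.52 ± 0.11) and the chemokines Ccl19 (0.72 ± 0.13) and Ccl27a (-0.99 ± 0.082), with Gm1987 lower (-1.43 ± 0.25). The call of Rpp25l was lost without B6 10. Chromosome 7 at 26.5 to 27.6 Mb had a run of 7 around the Cyp2b and Cyp2a genes. In it Cyp2b9 was at least 6.46-fold higher (adjusted p = 0.000987), next to Cyp2b10, and Cyp2g1 was higher by 1.87 ± 0.30, while Cyp2a4, Cyp2s1 (-0.73 ± 0.11) and Axl (-0.56 ± 0.13), a receptor for dying cells, were lower. The call of Axl was lost without NZO 11. A run of 6 on chromosome 4 at 145.7 to 147.1 Mb consisted mostly of zinc finger genes: Zfp982 was at least 5.13-fold lower and not well above background in any NZO mouse, Zfp992 was lower (-1.41 ± 0.17), and Zfp981 differed by 1.26 ± 0.094 at 1 probe and by -0.77 at the other.

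**Figure D5:**
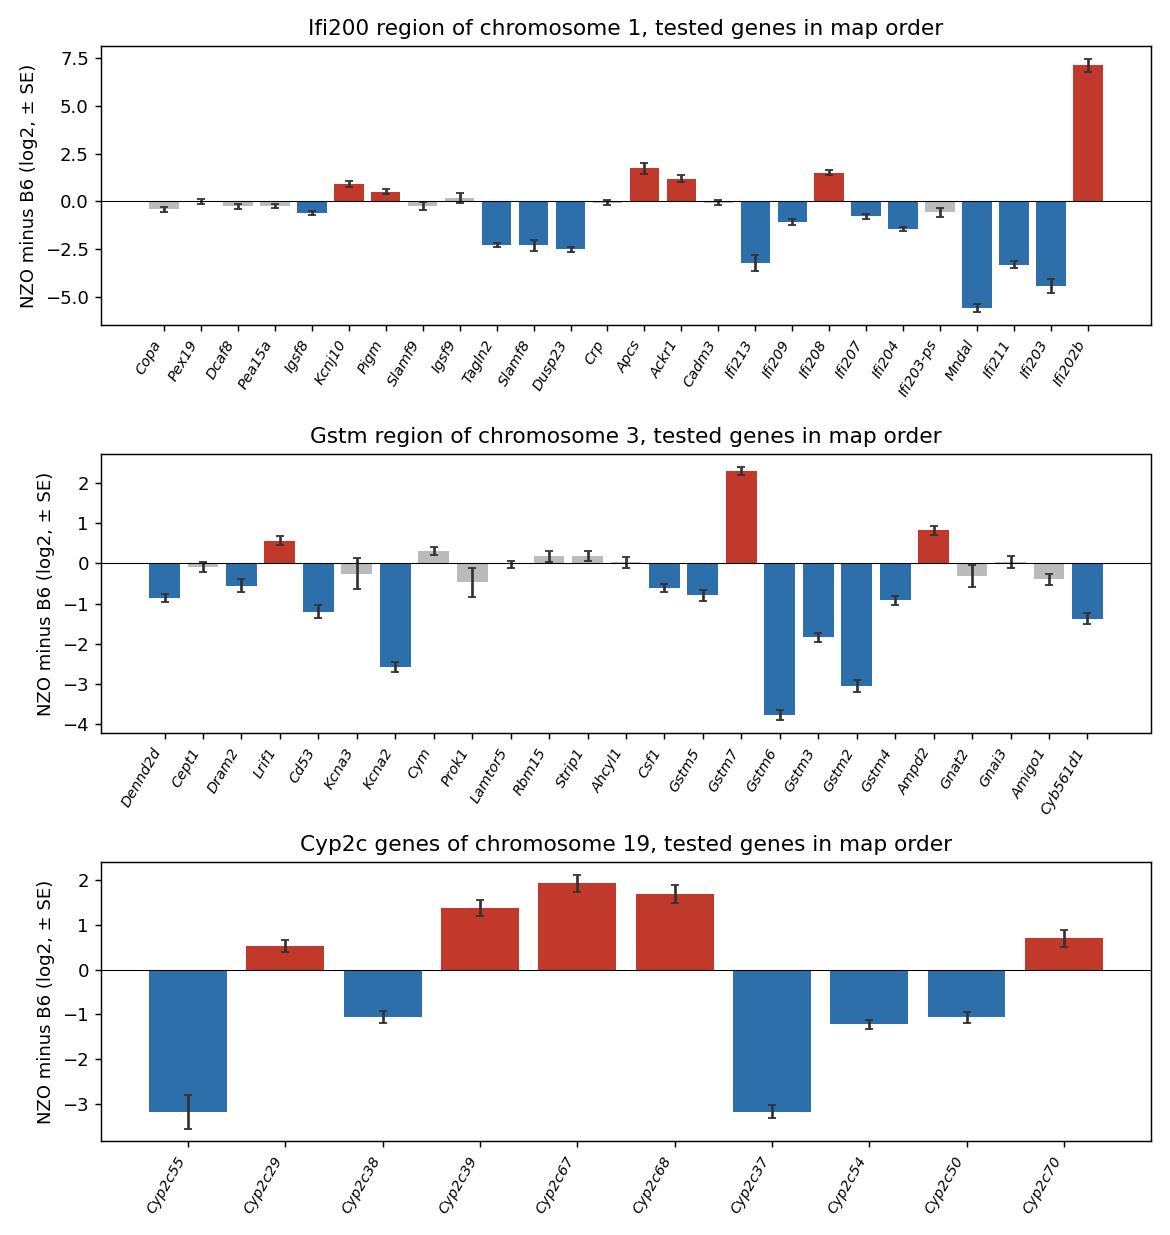
Log2 difference, NZO minus B6, with its SE for the tested genes of 3 stretches in map order, coloured where called (red higher, blue lower) and grey where not. In the Ifi200 region, the Gstm region and the Cyp2c cluster, neighbouring copies go in opposite directions.

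NZO was also set against DBA/2J, a strain that the title gives as diabetes-susceptible, with 4 male mice on the same diet. That comparison uses the same NZO arrays, so the values stand side by side and are not independent. Over 20062 transcripts 15.7% were called in a fit of the 12 arrays. At the Ifi200 genes, NZO minus DBA was -0.21 at Ifi202b (adjusted p = 0.725) and -0.21 at Ifi203 (adjusted p = 0.748), none of the called Ifi200 genes passing there. Crym (-0.61, adjusted p = 0.0794), Prelid2 (-0.21, adjusted p = 0.233), Cebpe (0.12, adjusted p = 0.861) and Ugt1a10 (0.13, adjusted p = 0.713) likewise missed the threshold against DBA. Other genes differed from both strains. Gstm6 was -4.39 (adjusted p = 9.51e-09) and Gstm7 1.97 (adjusted p = 2.59e-07), Abcb1b 4.51 (adjusted p = 8.14e-08), Wfdc21 -5.30 (adjusted p = 1.39e-09) and Dera 2.26 (adjusted p = 7.24e-07), NZO minus DBA on the log2 scale. Igfbp2 was -3.58 (adjusted p = 3.72e-05), whereas Igfbp1 was -0.94 (adjusted p = 0.17). Cyp39a1 differed from DBA by -3.59 and Slc25a17 by -2.95, Susd4 by -3.96 and Myom2 by 8.77, all called. Of the markers, Clec4f was -0.36 (adjusted p = 0.0631) and Trem2 0.49 (adjusted p = 0.224) against DBA, and Pdgfrb -0.85 (adjusted p = 0.000118).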

How the data were processed

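Liver RNA of 4 NZO and 4 B6 mice was measured on 1-colour Agilent arrays with 62976 spots. Per the file headers, the authors' scanner files come from version 11.0.1.1 of Agilent Feature Extraction on mouse build mm9, while the submitters' processing notes name version 9.1. The deposited processed signal is a linear intensity after the software's background subtraction and detrending, and the deposited well-above-background and outlier flags, other than intensities, are per-spot marks. The authors' deposited value table holds intensities with the same distribution in every column, and its scale was found from the scanner values (r of 0.965 to 0.971 per mouse). Its centring is unstated.

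Control spots (3671) and outlier spots (96 to 137 per array) were left out, no spot was saturated, and log2 processed signal minus each array's 75th percentile was used. Probes of 1 sequence were averaged, and the brightest tested probe stood for a gene. Of the names, 13494 came from an accession, 814 from a symbol and 79 from a synonym in the RefSeq table. limma 3.58.1 (R 4.3.3; lmFit, eBayes) compared the strain means over the 8 arrays, with Benjamini-Hochberg adjustment over 20063 transcripts. The test was checked on simulated data. Replicates are separately numbered mice. Lists held 1866 genes, 1728 of them tested, and were given no test of their own. The members and lists were chosen with earlier results of these data known. Named genes are the up to 3 higher and 3 lower called members of a list with the smallest adjusted p, the called genes of the 6 highest windows and 6 longest runs, and the 5 largest moderated t in each direction. Sequences are those of the array's probes, and 14287 of 14326 genes lay on the same chromosome in the RefSeq table. The alternatives were other scalings, background corrections, filters, probes, arrays, blocks, windows and each mouse left out. Linear sums of the marker lists were added after seeing the data. Sequence differences between the strains under the probes were not analysed here. Some results that the naming rule covers are not reported here.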

Additional observations from a re-analysis of the deposited data

Results flagged for a closer look

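Within each strain the highest and lowest of the 4 mice were set against the other 3 with Dixon's ratio, for every gene and list described. Of 522 such groups 33 had a mouse far from the rest, and chance alone flags about 1 in 20 groups. Values are log2 levels for genes and, for lists, mean log2 levels of the members relative to the mean of the 8 mice. NZO 3 lay above the other 3 mice of its strain at Cd53 (-2.92 against -3.47 to -3.39), Ces2c (6.05 against 5.75 to 5.77), Cyp2c23 (3.12 against 2.29 to 2.39), Gm5801 (-0.13 against -0.38 to -0.35) and Gsto2 (-2.003 against -2.34 to -2.32). NZO 7 lay above the other 3 mice of its strain at Cfp (3.74 against 3.44 to 3.47) and Susd4 (0.85 against -0.16 to -0.014). It lay below them at the circadian clock list (-0.16 against 0.08 to 0.10), the DNA repair list (-0.20 against 0.047 to 0.077), Gucy2c (-0.43 against 0.084 to 0.12) and Qdpr (5.63 against 5.80 to 5.81). NZO 9 lay below the other 3 mice of its strain at Aadat (-4.99 against -4.03 to -3.88), C6 (4.02 against 4.41 to 4.49), Cebpe (-5.94 against -4.90 to -4.76) and Tox4 (4.43 against 4.85 to 4.90). B6 9 lay above the other 3 mice of its strain at Cyp4a12a (5.13 against 4.85 to 4.87) and the one-carbon list (-0.029 against -0.10 to -0.094). It lay below them at Fcna (3.11 against 3.30 to 3.34). B6 10 lay above the other 3 mice of its strain at Copb1 (4.17 against 3.94 to 3.97), Fbxo28 (-0.75 against -0.99 to -0.98) and Gstm7 (2.69 against 2.44 in each). It lay below them at Atp5pb (5.32 against 5.42 in each) and Cx3cr1 (-1.63 against -0.92 to -0.86). B6 15 lay above the other 3 mice of its strain at the acute phase and serpin list (0.47 against -0.17 to -0.091), Axl (1.89 against 1.46 to 1.53) and Orm3 (1.22 against -0.99 to -0.97). It lay below them at Aadat (-3.01 against -2.38 to -2.36), Cyp2c54 (7.12 against 7.30 to 7.33), Igfbp2 (5.36 against 5.71 to 5.73), Lum (1.88 against 2.11 to 2.15), Ogg1 (-1.13 against -0.94 to -0.91), Slc25a40 (-1.73 against -1.56 to -1.55) and Tox4 (-1.27 against -0.84 to -0.77). At Aadat and Cebpe the NZO signals were not well above background, so their order there has no meaning.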

How the results depend on the processing

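Directions changed less than counts. All 2963 called transcripts kept their direction with each mouse left out, within each scan day, on the only slide with both strains (1 NZO mouse, NZO 3, against B6 10 and B6 15), with slide, scan day or animal number as a block, and under both other scalings of the arrays. These fits use the mice that gave the calls and are no independent evidence. With normexp background correction 99.2% did, and with the mean of all probes of a gene 98.5%. Normexp gave 490 called transcripts with a log2 difference of at least 1 in size, against 1237, and 322 called list members. Against 2963 called transcripts (1550 higher, 1413 lower in NZO), slide as a block gave 916 (368 and 548), 633 of them among the 2963, the only slide with both strains 434 (163 and 271), 335 of them among the 2963, the first scan day 1291 (708 and 583), 1195 of them among the 2963, and the second 563 (218 and 345), 449 of them among the 2963. These fits have fewer mice or fewer degrees of freedom. The mice share the animal numbers 9 and 11 between strains, but the deviations of same-numbered mice correlated at -0.26 and 0.0063, so the numbers do not pair them; a replicate block by animal number gave 104 calls (48 and 56), 96 of them among the 2963, 18 list members and 0 runs.

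Against 288 called list members there were 188 with no filter on dim probes (34600 transcripts tested, 2143 called), 59 with slide as a block, 34 on the slide with both strains, and 125 and 43 within the first and the second scan day. The 32 runs of called neighbours became 10 with no filter, 20 with probes above background in all 8 livers, 51 in a fit of all 20 arrays, 3 with slide as a block, 1 on the slide with both strains, and 8 and 2 within the scan days. The 12 windows with at least 50% called became 19 for 1 Mb windows (highest chromosome 1 at 175 to 176 Mb, 10 of 12), 3 for 5 Mb windows (highest chromosome 15 at 60 to 65 Mb, 6 of 10), and 10 for windows shifted by 1 Mb (highest chromosome 16 at 97 to 99 Mb, 5 of 8). For the 2 Mb windows, the 12 became 4 with probes above background in all 8 livers and 1 with no filter. Normexp gave 8, the first scan day alone 2, quantile normalization 14 and a fit of all 20 arrays 21.

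Leaving out 1 mouse gave 2167 to 2881 called transcripts (1129 to 1548 higher, 1038 to 1333 lower), 205 to 289 list members, 20 to 33 runs, and a larger SD in NZO for 52.3% to 64.8% of transcripts. Normexp reversed Dbf4 (0.011) and Dusp10 (0.013), and the mean of all probes reversed Cyp2c38 (1.098), Gstm4 (0.20), Ifi208 (-1.91) and Stab2 (-0.28). Of 282 named genes called, 215 kept their call with each mouse left out. A fit of all 20 arrays ended the calls of Cyp2s1, Esr1, Fgf21, Mcm6, Mmp2, Pik3r1, Prc1 and Rplp1, and the one of 12 arrays those of Dbf4 and Mcm6. The cause was not tested in any of these. The medians of 28 of the 59 lists, none over 0.19 in size, changed sign with the scaling or background correction. The authors' value table gave 2613 calls among 16272 transcripts. The precision is limited by 4 arrays per strain: in simulated data for this comparison, 7 of 50 transcripts changed by 0.5 log2 units were recovered, 25 of 50 at 1, 42 of 50 at 2 and 47 of 50 at 3. Only 50 of 20063 simulated transcripts were changed at each size, whereas 2963 were called in the data. Fewer changed transcripts make the Benjamini-Hochberg threshold stricter, so these shares may understate recovery in the data.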

Other observations

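The genes of this paragraph were chosen after their values were seen, because they lie in the 3 runs of called neighbours that all went in 1 direction. On chromosome 15 at 74.8 to 75.3 Mb, 5 of 5 genes were higher in NZO, members of the Ly6 family of small surface proteins, which mark leukocytes and are induced by interferon. Ly6a, also known as the stem cell antigen Sca-1, had log2 levels of 4.66, 5.70, 5.41 and 4.73 in NZO mice and 2.03, 1.98, 1.31 and 1.87 in B6 mice (difference 3.33 ± 0.27, limma adjusted p = 0.000114). Ly6c1 had log2 levels of 5.88, 6.74, 6.42 and 5.88 in NZO mice and 3.40, 3.12, 3.17 and 3.86 in B6 mice (2.84 ± 0.24, adjusted p = 0.000149), and Ly6e differed by 0.96 ± 0.15. Every NZO mouse lay above every B6 mouse at these genes. On chromosome 3 at 145.3 to 145.5 Mb, 4 of 4 genes were lower, among them Ddah1, which breaks down an inhibitor of nitric oxide synthase, with log2 levels of -0.26, -0.69, -0.88 and -0.77 in NZO mice and 3.28, 2.77, 3.00 and 3.60 in B6 mice (-3.81 ± 0.21, adjusted p = 1.33e-05), and Ccn1, a matrix signalling protein (-2.15 ± 0.39, adjusted p = 0.00750). On chromosome 12 at 113.0 to 113.2 Mb, 4 of 4 were lower, among them the recombination repair gene Xrcc3 (-1.35 ± 0.31, adjusted p = 0.0223) and Ppp1r13b, a partner of the tumour suppressor p53 (-0.85 ± 0.098, adjusted p = 0.000745).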
